A study of Mus musculus with 30 samples.

Results

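Mitochondrial genome transcripts were taken here as every row of the count table whose symbol starts with mt-, which gave 37 genes of 56980: 13 mRNAs, 2 rRNAs and 22 tRNAs, all on the mitochondrial chromosome. The counts came from the soleus, a slow postural calf muscle, of 30 C57BL/6J mice aged 3 to 4 months. Control mice (Ctrl) carried floxed alleles of the α1 (Prkaa1) and α2 (Prkaa2) catalytic subunits of AMPK, the AMP-activated protein kinase that senses low energy, and no Cre. Double knockout mice (mKO) lacked both subunits in muscle; the labels do not name the Cre driver, and since controls had no Cre, loss of AMPK and presence of Cre cannot be told apart. Mice of each genotype were either ambulatory (AMB) for 4 weeks or had 4 weeks of hindlimb unloading (HU), in which the hind feet bear no weight. There were 8 AMB Ctrl mice (3 male, 5 female), 7 AMB mKO (5 male, 2 female), 7 HU Ctrl (4 male, 3 female) and 8 HU mKO (3 male, 5 female). Total counts per library ran from 12.1 M to 20.9 M (M for 1000000).

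The mitochondrial genome is a compact circle transcribed in full from both strands. Long precursors begin at heavy-strand and light-strand promoters and are cut apart, mostly at the tRNAs that lie between the other genes. The heavy-strand promoters give both rRNAs and all mRNAs except mt-Nd6, which comes from the light-strand promoter together with 8 of the tRNAs. The mRNAs encode core subunits of respiratory complexes I (mt-Nd genes), III (mt-Cytb) and IV (mt-Co genes) and of the ATP synthase (mt-Atp6 and mt-Atp8), while the remaining subunits are nuclear genes. The rRNAs mt-Rnr1 and mt-Rnr2 belong to the small and large subunit of the mitochondrial ribosome. Slow soleus fibres are rich in mitochondria.

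Because the genome is compact and parts of it were copied into nuclear chromosomes, sequence bears on what a count in these rows can show. Of the 150-base windows (the read length) that tile each mRNA, mt-Co2, mt-Atp6, mt-Co3, mt-Nd4l and mt-Nd3 shared 99.4%, 99.4%, 99.8%, 98.0% and 97.0% exactly with an annotated nuclear gene model. For mt-Nd4 the share was 59.2% and for mt-Co1 23.6%. The other 6 mRNAs and both rRNAs shared none with an annotated model. Nuclear sequence outside annotated transcripts was not searched. Transcript sequences are those of GENCODE M21 (GRCm38), a build earlier than the authors' GRCm39, so no chromosome position is given. The border of the shared stretch is shown for the 2 genes that share a part, with the bases identical to the nuclear copy in capitals. Identity begins at base 1067 of mt-Co1, copied in Gm29216 (shown are bases 1007 to 1126), and ends at base 876 of mt-Nd4, copied in Gm28439 (bases 817 to 936).
mt-Co1: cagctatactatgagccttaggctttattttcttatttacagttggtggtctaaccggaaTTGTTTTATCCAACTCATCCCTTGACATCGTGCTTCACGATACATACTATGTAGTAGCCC
mt-Nd4: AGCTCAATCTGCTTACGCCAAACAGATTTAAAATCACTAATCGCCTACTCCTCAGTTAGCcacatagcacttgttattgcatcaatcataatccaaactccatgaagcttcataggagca

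Neighbouring genes also share bases. The last 43 bases of mt-Atp8 are the first of mt-Atp6 on the same strand, and the ends of mt-Nd5 and mt-Nd6 overlap by 14 bases on opposite strands. Capitals mark the overlap in the final stretch of each gene, read 5′ to 3′ in its own transcript.
mt-Atp8 end: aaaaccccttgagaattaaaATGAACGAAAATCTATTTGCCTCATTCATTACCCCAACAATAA
mt-Nd5 end: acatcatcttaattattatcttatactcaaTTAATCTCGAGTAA
mt-Nd6 end: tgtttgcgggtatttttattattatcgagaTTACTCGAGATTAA
The libraries were made with a directional kit, but no label says how the counting treated strand, overlapping genes and reads with several matches.

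Per unit of length, the rRNAs and mRNAs fell into a high and a low tier. Levels are normalised CPM, counts per 1000000 of the effective library size, and per kilobase they can be compared between genes. Mean normalised CPM per kilobase over the 30 libraries was 12855 for mt-Co1, 6575 for mt-Rnr2, 5196 for mt-Cytb, 4956 for mt-Nd1, 3487 for mt-Nd2, 2967 for mt-Nd5, 1999 for mt-Nd4, 628 for mt-Nd6 and 308 for mt-Rnr1. The ranges over libraries of mt-Cytb and mt-Nd1, neighbours in that order, overlapped. A second tier was far lower: 49.5 for mt-Atp8, 42.6 for mt-Atp6, 40.8 for mt-Co2, 32.2 for mt-Co3, 23.3 for mt-Nd4l and 1.75 for mt-Nd3. The 5 genes shared almost wholly with nuclear models were all in this tier. mt-Atp8, which is 204 bases long and lies between mt-Co2 and mt-Atp6 on the genome, is there too. Of its 55 windows 0 were shared with an annotated model, which does not exclude a nuclear copy outside the annotation.

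**Figure D1:**
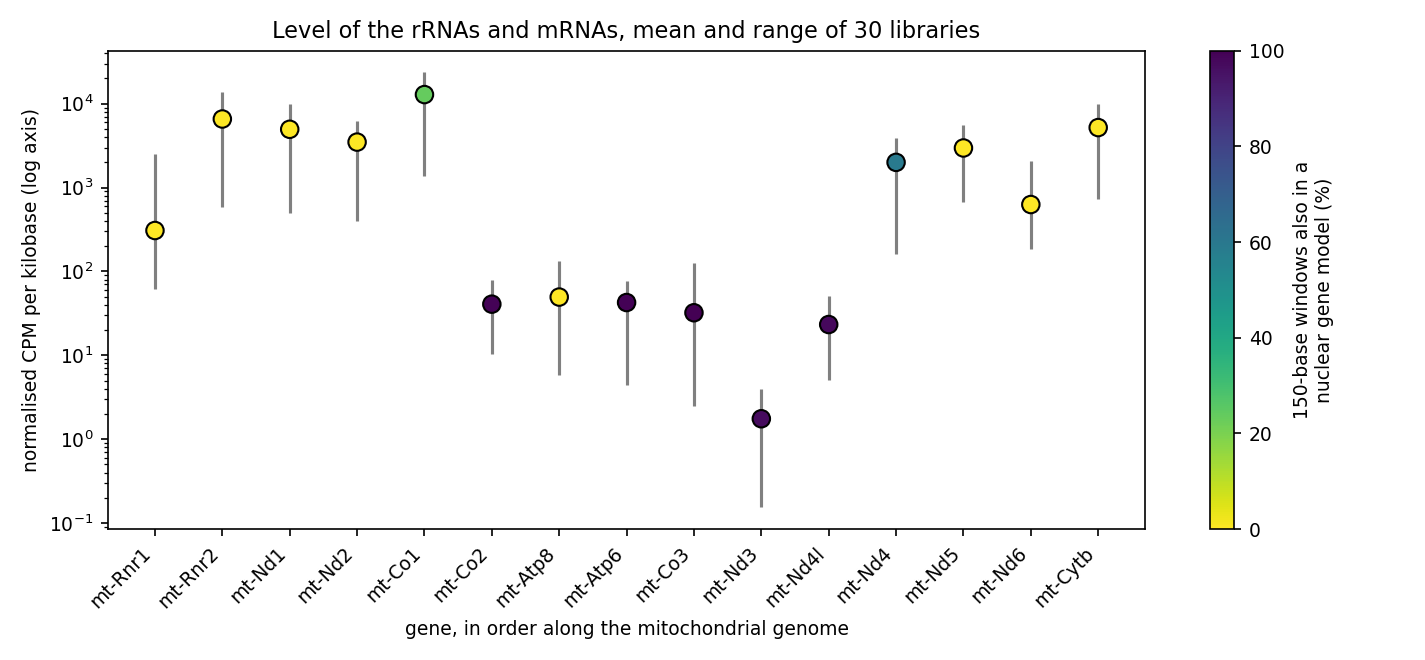
Normalised CPM per kilobase on a log axis for the 2 rRNAs and 13 mRNAs in genome order; points are means and lines the range over 30 libraries, and colour gives the percent of 150-base windows that also occur in a nuclear gene model. The 5 genes near 100% lie between 1.75 and 42.6, and the genes with no shared window lie at 308 or above except mt-Atp8 at 49.5.

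The nuclear models carried counts of their own. Gm10925, the copy of mt-Atp6, measured 55.5 ± 19.9 CPM (SD, n = 30) against 29.0 for mt-Atp6 itself. Gm28661, a copy of mt-Co2, measured 39.9 ± 13.9 CPM against 27.9. Each was above its mitochondrial gene in 30 of 30 libraries. A second model, Gm13341, shared a part of mt-Co2 (24 windows) and was lower, at 14.6 ± 4.72 CPM, above mt-Co2 in 0 of 30 libraries. Gm28437 stood above mt-Co3 in 28 libraries, Gm28438 above mt-Nd3 in 30 and Gm10222 above mt-Nd4l in 29. The copies of the partly shared genes stayed low, at 30.8 CPM for Gm29216 beside 19862 for mt-Co1 and 22.9 CPM for Gm28439 beside 2755 for mt-Nd4. Counts of the 5 wholly shared genes and of their copies are therefore uncertain, since reads from either could be split between them or left out. Whether the same holds for mt-Atp8 was not settled, because only annotated models were searched.

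Before any group is compared, 3 libraries stood apart in mitochondrial counts. The mitochondrial share of all counts was 1.01% in AMB mKO replicate 4 (titled 40a), 1.75% in AMB mKO replicate 2 (32c) and 2.20% in AMB Ctrl replicate 7 (1b), against 3.39 to 8.37% in the other 27. Library 32c held 116 CPM of the slow myosin Myh7, against at least 4310 in the other 27, and 903 CPM of the fat-cell hormone Adipoq, against at most 200. In it all 12 slow-fibre and 10 of 14 fast-fibre markers lay below every other library, and 8 of 10 adipocyte and 7 of 10 macrophage markers above. Library 40a held 13334 CPM of the collagen Col1a1, against at most 5638, with 7 of 12 fibroblast and matrix markers above all other libraries, and 16581 CPM of Myh7. All 12 slow-fibre and all 14 fast-fibre markers were detected in all 30 libraries. Prkaa2 averaged 213 ± 28.3 CPM (SD, n = 8) in AMB Ctrl, 60.3 ± 26.3 in AMB mKO, 254 ± 73.2 in HU Ctrl and 80.1 ± 18.5 in HU mKO, with no overlap between genotypes. Prkaa1 averaged 20.99 ± 2.74, 17.2 ± 9.03, 25.3 ± 2.98 and 17.5 ± 3.88 CPM in the same order, and its highest mKO value, 36.2, was in 32c.

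Mitochondrial transcripts made up between 4.54 and 5.70% of soleus counts on average in the 4 groups. The share was 5.48 ± 1.81% in AMB Ctrl (SD, n = 8), 4.54 ± 2.38% in AMB mKO (n = 7), 5.70 ± 1.40% in HU Ctrl (n = 7) and 5.10 ± 0.78% in HU mKO (n = 8). Without 32c the AMB mKO mean was 5.01%, without 40a it was 5.13%, and without both it was 5.81 ± 1.2% (n = 5, range 4.67 to 7.19%). The highest library was 8.29 times the lowest. The difference between AMB mKO and AMB Ctrl was within the spread of either group and changed sign when 32c and 40a were left out. In bulk tissue, fewer cells of a type and less RNA per cell cannot be told apart.

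The mRNA and rRNA parts of that share differed in pattern. The 13 mRNAs held 4.70 ± 1.62% of counts in AMB Ctrl, 3.83 ± 1.99% in AMB mKO (4.89 ± 0.94% without both libraries), 4.34 ± 0.94% in HU Ctrl and 3.74 ± 0.58% in HU mKO. The 2 rRNAs held 0.769 ± 0.284% in AMB Ctrl, 0.706 ± 0.428% in AMB mKO (0.904 ± 0.320% without both), 1.35 ± 0.47% in HU Ctrl and 1.35 ± 0.22% in HU mKO. The rRNA share was thus higher on average after unloading in both genotypes, with groups that overlapped. That sum was mostly mt-Rnr2, at a mean of 10402 CPM over the 30 libraries against 294 CPM for mt-Rnr1. mt-Rnr1 averaged 188 CPM in AMB Ctrl and 225 in HU Ctrl. In mKO mice its mean was 544 CPM in AMB mKO (59.7 to 2434) and 242 in HU mKO (144 to 471). The AMB mKO mean rests on the library at 2434 CPM, since the rest of that group lay between 59.7 and 407. These means therefore do not show a lower level after unloading. The 22 tRNAs together held on average 0.00737% in AMB Ctrl, 0.00630% in AMB mKO, 0.00702% in HU Ctrl and 0.00690% in HU mKO. The shares are descriptions and were not tested. Nor was the part that library preparation had in the rRNA counts.

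**Figure D2:**
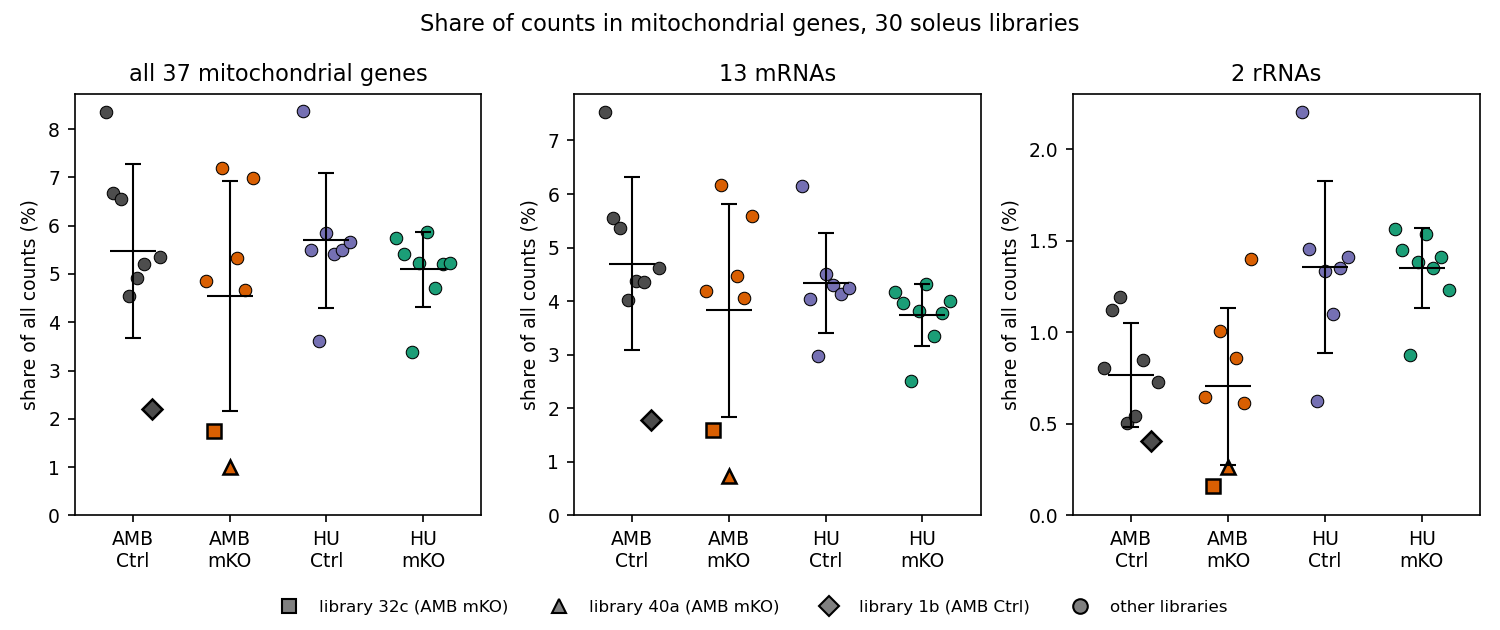
Percent of all counts in the 37 mitochondrial genes, the 13 mRNAs and the 2 rRNAs, one point per library, with the group mean and SD as bars. Libraries 40a, 32c and 1b have the 3 lowest total shares, 1.01, 1.75 and 2.20%, and the rRNA means are 0.769 and 0.706% in ambulatory against 1.35% in both unloaded groups.

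For tests of single genes, 24 of the 37 had enough counts: the 13 mRNAs, both rRNAs and 9 tRNAs. The model was edgeR's quasi-likelihood test over 16932 genes with sex as a covariate, and a gene is called at a Benjamini-Hochberg adjusted p below 0.05. The 13 untested tRNAs averaged at most 0.429 CPM, and mt-Tk and mt-Tg had no count in any library.

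Unloading in control soleus lowered mt-Nd6, the light-strand mRNA for a complex I subunit, and changed no other mitochondrial transcript past the threshold. mt-Nd6 lay between 294 and 1080 CPM in AMB Ctrl (median 419) and between 154 and 361 CPM in HU Ctrl (median 174). The 2 groups overlapped, with 4 of 7 unloaded libraries below all ambulatory ones. Its mean fell 2.10-fold in the model, from 480 ± 254 (SD, n = 8) to 235 ± 94.2 CPM (n = 7), with log2 -1.07 ± 0.33 SE and an adjusted p of 0.0319 by edgeR. Across all genes 11.1% were called in this comparison, 5.74% of all genes as lower and 5.37% as higher, against 1 of 24 here, which is lower. The difference was in the same direction within each title letter (a, b and c, unexplained in the labels; log2 -0.86, -1.29 and -0.93) and in both sexes (females -0.89, males -1.30).

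That call rests on the control library 1b, whose 1080 CPM is far above the 294 to 494 of the other 7. Without it the log2 change was -0.81 with an adjusted p of 0.110 by edgeR, and the AMB Ctrl mean was 395 ± 81.9 CPM (n = 7). The call was also lost with no low-count filter (adjusted p = 0.0632 by edgeR), and with each library's GC contrast, the offset of its GC-rich from its GC-poor genes, as a covariate (log2 -0.66, adjusted p = 0.233). It held in 12 of 16 alternatives, with adjusted p from 0.00691 to 0.233. GC contrast itself was lower after unloading, from -0.17 to 0.81 in AMB Ctrl and from -0.54 to -0.03 in HU Ctrl, and of 12 fibroblast and matrix markers 4 fell in controls, where 5.74% of all genes were called lower, and 9 in mKO mice, where 4.75% were. Without 32c and 40a these counts were 4 and 3, where 3169 and 1833 of all 17313 genes tested were called in either direction. The summed level of those 12 was 1452 to 12645 CPM in AMB Ctrl, 1611 to 26816 in AMB mKO, 829 to 5764 in HU Ctrl and 888 to 2593 in HU mKO. The part of these markers in the mt-Nd6 result was not tested.

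The larger rRNA, mt-Rnr2, and the short ATP synthase mRNA mt-Atp8 had higher values after unloading in both genotypes without passing the threshold in either. mt-Rnr2 lay between 4640 and 10960 CPM in AMB Ctrl (median 7781) and between 5014 and 21735 in HU Ctrl (median 13847), a log2 difference of 0.76 ± 0.40 SE with an adjusted p of 0.226 by edgeR. In mKO mice it lay between 919 and 13820 CPM when ambulatory (median 7422) and between 6426 and 17249 when unloaded (median 14410), at log2 0.96 ± 0.42 with an adjusted p of 0.137. The ambulatory and unloaded ranges overlapped in both genotypes. mt-Atp8 averaged 7.59 ± 2.22 CPM in AMB Ctrl (SD, n = 8), 6.73 ± 4.204 in AMB mKO (n = 7; 8.93 ± 2.30 without 32c and 40a), 13.1 ± 5.36 in HU Ctrl (n = 7) and 12.9 ± 6.32 in HU mKO (n = 8). Its log2 differences were 0.75 ± 0.38 in controls and 0.99 ± 0.40 in mKO, with adjusted p of 0.212 and 0.107 by edgeR. When 32c and 40a were left out, both genes passed in controls, mt-Rnr2 at 0.81 ± 0.27 (adjusted p = 0.0354 by edgeR) and mt-Atp8 at 0.79 ± 0.28 (adjusted p = 0.0450). That fit called 4 mitochondrial genes and 3169 of all 17313 genes tested with unloading in controls. The control libraries were the same in both fits. The control log2 values moved little and their SE fell, because the groups share an estimate of the spread. The mKO differences without 32c and 40a were 0.51 ± 0.31 and 0.54 ± 0.32 (adjusted p = 0.315 and 0.300 by edgeR).

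**Figure D3:**
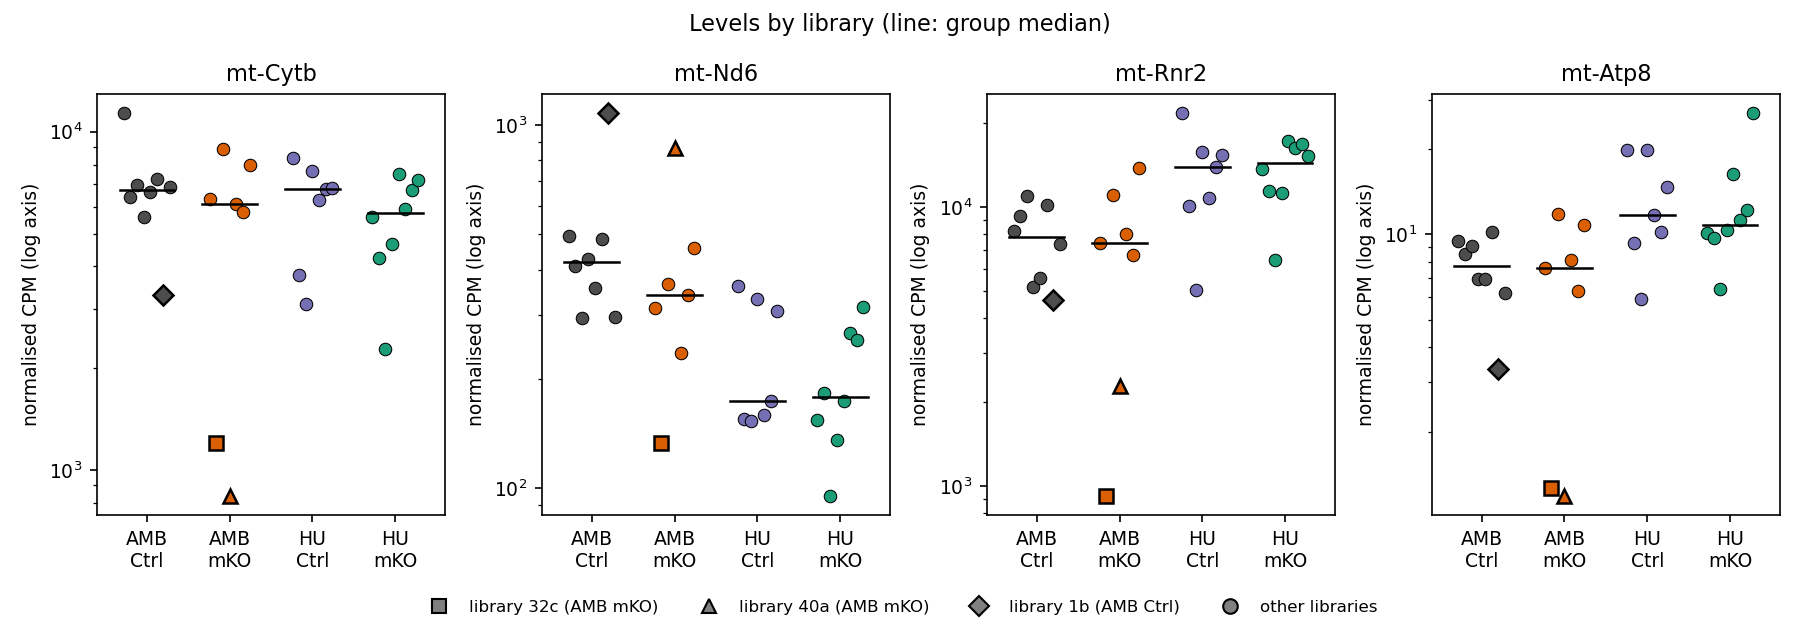
Normalised CPM on a log axis of mt-Cytb, mt-Nd6, mt-Rnr2 and mt-Atp8, one point per library, with the group median as a line. mt-Cytb medians lie between 5743 and 6771 CPM in the 4 groups, mt-Nd6 medians are 419 and 341 in ambulatory against 174 and 179 in unloaded groups, and libraries 1b and 40a are high in mt-Nd6 and low in mt-Cytb.

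None of the abundant mRNAs was called. mt-Co1, the catalytic subunit of complex IV and the most abundant transcript, ranged over 8663 to 36417 CPM in AMB Ctrl (median 22554), 2147 to 34296 in AMB mKO (median 23431), 12689 to 28926 in HU Ctrl (median 18863) and 9201 to 22349 in HU mKO (median 17142). mt-Cytb, the core of complex III, ranged over 3281 to 11386 CPM in AMB Ctrl (median 6736), 836 to 8886 in AMB mKO (median 6113), 3100 to 8339 in HU Ctrl (median 6771) and 2273 to 7482 in HU mKO (median 5743). All 4 ranges overlapped for both genes. In controls 9 of the 13 mRNAs had negative and 4 positive log2 changes with unloading, with a median of -0.20 against 0.03 for all genes tested. Among the other complex I subunits, mt-Nd1 averaged 5226 ± 2072 CPM in AMB Ctrl and 4916 ± 1542 in HU Ctrl, mt-Nd2 3717 ± 1449 and 4028 ± 1314, mt-Nd4 3017 ± 1221 and 2874 ± 961, and mt-Nd5 6121 ± 1871 and 5330 ± 1872.

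In mKO soleus no mitochondrial transcript was called with unloading, where 10.1% of all genes were, 5.3% as higher and 4.75% as lower. At an unadjusted edgeR p below 0.05 there were 5 of the 24, against 4615 of all 16932 genes. DESeq2 called 2 of the 24, both tRNAs, against 2335 of all genes. The mRNAs split into 10 positive and 3 negative, with a median log2 change of 0.19 against -0.04 for all genes, and without 32c and 40a into 4 positive and 9 negative, with a median of -0.21. mt-Nd6 lay between 134 and 865 CPM in AMB mKO (median 341) and between 95.2 and 315 in HU mKO (median 179), overlapping, at log2 -0.78 ± 0.35 SE with an adjusted p of 0.142 by edgeR. Its direction held within the title letters (log2 -1.55, -0.39 and -0.66) and in males (-1.41). Between females it was 0.02, where the 2 ambulatory mice include 32c. With limma-voom and library weights mt-Nd6 was called at an adjusted p of 0.0467.

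The remaining complex I mRNAs and the mRNAs with nuclear copies had overlapping ranges in ambulatory and unloaded mKO mice. mt-Nd1 averaged 4240 ± 2552 CPM in AMB mKO and 4549 ± 1108 in HU mKO, mt-Nd2 3082 ± 1937 and 3635 ± 1055, mt-Nd4 2361 ± 1453 and 2734 ± 861, and mt-Nd5 5302 ± 2605 and 4873 ± 1763. Without 32c and 40a the AMB mKO means were 5591 for mt-Nd1, 4115 for mt-Nd2, 3146 for mt-Nd4 and 6659 for mt-Nd5. Of the genes shared with nuclear copies, mt-Co2 averaged 32.9, 25.2, 27.5 and 25.4 CPM in AMB Ctrl, AMB mKO, HU Ctrl and HU mKO, mt-Atp6 28.4, 22.7, 34.2 and 30.6, mt-Co3 22.02, 18.8, 34.2 and 26.3, mt-Nd4l 8.34, 5.82, 6.98 and 6.41, and mt-Nd3 0.854, 0.491, 0.521 and 0.549. None of them was called in any comparison, and their group ranges overlapped.

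**Figure D4:**
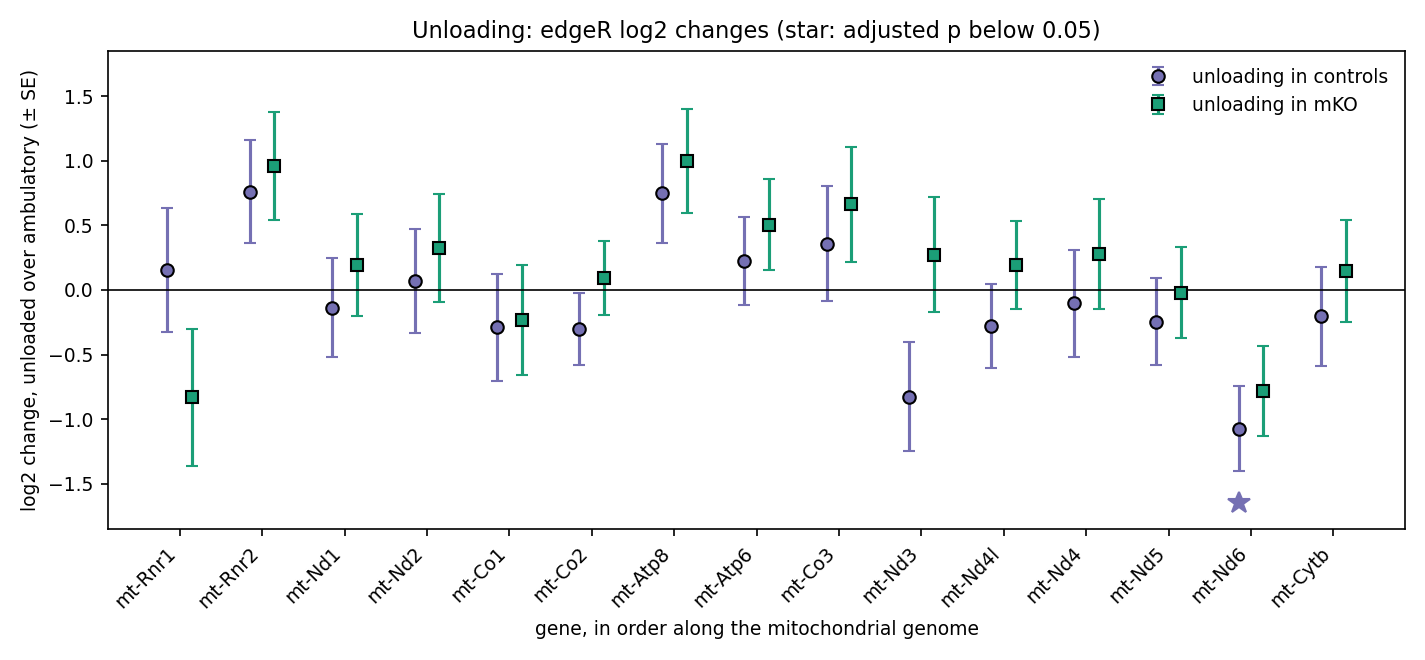
Log2 change with unloading (unloaded over ambulatory, ± SE, edgeR) of the rRNAs and mRNAs in genome order, circles for controls and squares for mKO mice. mt-Nd6 in controls, at -1.07, is the one star; mt-Rnr2 and mt-Atp8 are the highest points for controls, at 0.76 and 0.75.

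Seen against the other mitochondrial mRNAs of the same library, mt-Atp8 and mt-Rnr2 were higher in unloaded than in ambulatory soleus. These ratios were looked at after the values were seen, and no test was made of them. Heavy-strand-promoter mRNAs are here the 12 mRNAs other than mt-Nd6. Per 1000000 counts of the others, mt-Atp8 gave 119 to 195 counts in AMB Ctrl, 132 to 191 in AMB mKO, 238 to 373 in HU Ctrl and 269 to 534 in HU mKO. All unloaded libraries lay above all ambulatory ones in both genotypes, with medians 1.90 times as high in each, and libraries 32c (132), 40a (176) and 1b (167) lay with the other ambulatory mice. The lowest raw count behind these values was 15, in AMB mKO. Of the 24 genes examined as ratios, mt-Atp8 alone was separate in controls, where 0.467% of all genes tested had every unloaded library above every ambulatory one on the same ratio. In mKO mice 3 of 24 were separate, against 0.0886% of all genes: mt-Atp8, mt-Nd2 (64464 to 91057 against 91955 to 119350) and mt-Atp6 (447 to 707 against 746 to 984). Without 32c and 40a 6 of 24 were, against 10.2% of all genes, with mt-Rnr2, mt-Nd1 (109307 to 122093 against 125069 to 152960) and mt-Tl1 (116 to 183 against 215 to 420) added. For nuclear genes this ratio is by construction high in libraries low in mitochondrial counts, such as 1b in controls and 32c and 40a in mKO mice. With these ambulatory libraries kept, nuclear genes are less likely to be higher in every unloaded one. The 0.467% and 0.0886% therefore do not show how rare a separation is, and no share without 1b was computed. mt-Atp6 shares its start with mt-Atp8 and almost all of its sequence with Gm10925. A nuclear copy of mt-Atp8 outside the annotated models was not searched for.

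mt-Rnr2 gave 16.9 ± 4.90 counts per 100 heavy-strand-promoter mRNA counts in AMB Ctrl (SD, n = 8; 10.3 to 23.2), 18.5 ± 7.70 in AMB mKO (n = 7; 9.56 to 33.8), 30.2 ± 5.55 in HU Ctrl (n = 7; 20.7 to 35.7) and 35.7 ± 2.85 in HU mKO (n = 8; 30.1 to 40.1). In mKO mice 40a alone reached into the unloaded range, and without 32c and 40a the ambulatory mKO libraries lay between 14.8 and 21.4. In controls the ranges overlapped. The part of library preparation in this rRNA ratio was not tested. mt-Nd6 gave 5.90 to 53.9 counts per 1000 in AMB Ctrl, 5.29 to 129 in AMB mKO, 3.74 to 6.64 in HU Ctrl and 3.54 to 6.61 in HU mKO. The highest were 40a at 129 and 1b at 53.9, and the next, 32c, gave 13.9.

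**Figure D5:**
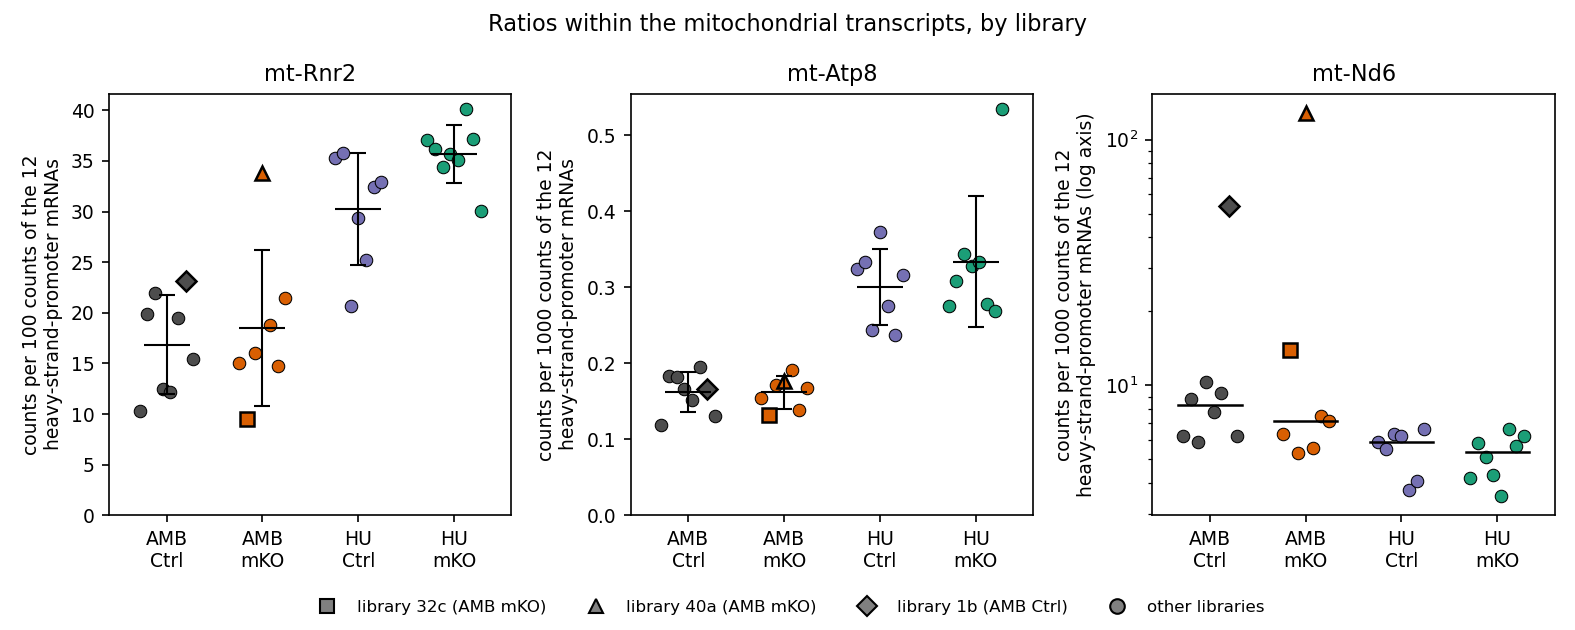
Counts of mt-Rnr2, mt-Atp8 and mt-Nd6 relative to the 12 heavy-strand-promoter mRNAs, one point per library; bars are mean and SD, and the line in the mt-Nd6 panel, which has a log axis, is the median. For mt-Atp8 no ambulatory library exceeds 0.195 and no unloaded one is under 0.238 per 1000, and for mt-Nd6 libraries 40a (129) and 1b (53.9) stand above all others.

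Within the 13-mRNA sum the shares were as follows. mt-Co1 made up 47.1%, 47.0%, 45.5% and 43.9% of the 13-mRNA sum in AMB Ctrl, AMB mKO, HU Ctrl and HU mKO, and 28.3% in 40a alone; without 32c and 40a the AMB mKO mean was 50.3%. mt-Cytb made up 14.1%, 12.6%, 14.1% and 14.2%, mt-Nd1 10.7%, 10.1%, 11.4% and 12.03%, mt-Nd2 7.54%, 7.04%, 9.30% and 9.48%, and mt-Nd4 6.09%, 5.39%, 6.62% and 7.07%. Without 32c and 40a the AMB mKO means were 13.0% for mt-Cytb, 10.3% for mt-Nd1, 7.56% for mt-Nd2 and 5.79% for mt-Nd4. mt-Nd2 had a higher mean share in both unloaded groups than in either ambulatory group; shares were not tested. mt-Nd5 made up 13.0%, 15.4%, 12.2% and 12.5%, with 12.3% in AMB mKO once 32c and 40a were left out.

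The tRNAs were counted at low levels. Their genes are 59 to 75 bases long, shorter than the 150-base reads. Mature tRNAs and longer precursors therefore cannot be told apart in these counts. Of the 22, 7 averaged at least 1 CPM: mt-Tw at 41.5, mt-Tl1 at 10.3, mt-Ti at 5.66, mt-Tq at 3.99, mt-Tm at 3.23, mt-Tt at 2.73 and mt-Tp at 1.22. Sequences follow for the tRNAs with the smallest p in an unloading comparison, mt-Tq (glutamine, light strand), mt-Tt (threonine) and mt-Tl1 (leucine), with the 3 bases that mt-Tq shares with its opposite-strand neighbour mt-Ti in capitals.
mt-Tq: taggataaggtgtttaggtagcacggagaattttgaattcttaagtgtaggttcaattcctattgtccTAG
mt-Tt: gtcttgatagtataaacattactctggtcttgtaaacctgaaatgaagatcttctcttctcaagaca
mt-Tl1: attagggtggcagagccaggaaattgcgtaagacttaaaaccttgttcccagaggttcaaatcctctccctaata
In controls mt-Tq averaged 5.68 ± 2.85 CPM when ambulatory (SD, n = 8) and 3.32 ± 1.72 when unloaded (n = 7), at log2 -0.90 ± 0.33 SE with an adjusted p of 0.0689 by edgeR. In mKO mice mt-Tt averaged 1.71 ± 1.07 and 3.89 ± 1.847 CPM, at log2 1.32 ± 0.47 with an adjusted p of 0.0680, and mt-Tl1 7.47 ± 3.61 and 12.7 ± 4.88 CPM, at log2 0.95 ± 0.35 with an adjusted p of 0.0801. All 3 differences had the same sign within each title letter, but for mt-Tl1 the sign in letter c rests on AMB mKO replicate 2. That library held 1.49 CPM of mt-Tl1 and AMB mKO replicate 3, the other ambulatory mKO library of letter c, 12.4 CPM. The unloaded mKO libraries of that letter held 12.9, 6.79 and 5.93 CPM.

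No mitochondrial transcript was called between mKO and control mice in ambulatory or in unloaded soleus, and 0.0177% of all genes were called in each of these comparisons, 0.0118% as higher and 0.00591% as lower. Unadjusted edgeR p was below 0.05 for 2 of the 24 in ambulatory and 0 in unloaded mice, against 1291 and 301 of all 16932 genes. DESeq2 called none of the 24 in either, and 9 and 3 of all genes. In ambulatory mice all 13 mRNAs had lower values in mKO, with a median log2 difference of -0.42 against 0.02 for all genes. Without 32c and 40a the split was 7 higher and 6 lower, and the median 0.03. The smallest p belonged to mt-Rnr1, at log2 1.23 ± 0.52 with an adjusted p of 0.616 by edgeR, then mt-Nd3 at -0.99 ± 0.44 (adjusted p = 0.628) and mt-Tq at -0.64 ± 0.33 (adjusted p = 0.684). mt-Nd6 differed by -0.43 ± 0.33 (adjusted p = 0.849) and mt-Rnr2 by -0.14 ± 0.42 (adjusted p = 0.984). The mt-Rnr1 value rests on AMB mKO replicate 7 (3b), at 2434 CPM against 59.7 to 407 in its group, and without it the log2 difference was 0.14. That library also held 2522 CPM of Lars2, the mitochondrial leucyl-tRNA synthetase, the highest of all 30; whether the 2 are linked was not tested.

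In unloaded mice 11 of the 13 mRNAs had lower values in mKO, with a median of -0.10. The smallest p among the 24 belonged to mt-Te (-0.41 ± 0.44), mt-Ti (-0.31 ± 0.37) and mt-Tl1 (0.28 ± 0.33), mt-Nd6 differed by -0.14 ± 0.33 and mt-Rnr2 by 0.05 ± 0.39, all with an adjusted p of 1.00 by edgeR. The interaction of genotype and unloading called 0 of the 24 and 0% of all genes, where 410 genes, none of them among the 24, had an unadjusted p below 0.05; DESeq2 also called 0 of all genes. All 13 mRNAs had a positive interaction term (median 0.30), which without 32c and 40a became 3 positive and 10 negative (median -0.12). The smallest p were those of mt-Nd3 (1.10 ± 0.62), mt-Tl1 (0.85 ± 0.49) and mt-Rnr1 (-0.98 ± 0.73), with mt-Nd6 at 0.29 ± 0.48 and mt-Rnr2 at 0.20 ± 0.59.

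A list of 76 nuclear genes held subunits of the respiratory complexes and ATP synthase, and cytochrome c. Of the 76, 23 fell with unloading in controls and none rose, with a median log2 change of -0.54. Among all genes 5.74% were called lower there. In mKO mice 2 of the 76 fell, where 4.75% of all genes were called lower, and 13 had positive changes, with a median of -0.29. The difference between these counts and those of the mitochondrial genes was not tested. Ndufs8, a complex I subunit, fell from 104 to 58.9 CPM (log2 -0.86 ± 0.19, adjusted p = 0.00319 by edgeR), Uqcrq, a complex III subunit, by 0.85 on the log2 scale, and Cycs, cytochrome c, from 147 to 80.9 CPM and by 0.73 in mKO mice. The other gene to fall in mKO mice was Atp5mc3, which encodes subunit c of the ATP synthase (log2 -0.68 ± 0.20, adjusted p = 0.0303 by edgeR). With 32c and 40a left out the counts were 46 in controls and 23 in mKO mice. In that fit 3169 of all 17313 genes tested were called in either direction in controls and 1833 in mKO mice. The share of counts in these 76 genes averaged 1.87 ± 0.24% in AMB Ctrl, 1.595 ± 0.382% in AMB mKO, 1.43 ± 0.16% in HU Ctrl and 1.24 ± 0.19% in HU mKO. In 32c it was 0.841%, the lowest of all, while 40a and 1b, low in mitochondrial counts, held 2.03% and 2.19%. None of 12 slow-fibre markers was called with unloading, and without 32c and 40a 7 fell in controls and 6 in mKO mice. Their summed level was 19368 to 45928 CPM in AMB Ctrl, 557 to 41519 in AMB mKO, 12298 to 31706 in HU Ctrl and 12367 to 39081 in HU mKO. Its part in these results was not tested.

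None of 20 genes for transcription and replication of mitochondrial DNA was called in any comparison; without 32c and 40a 1 was called lower with unloading in mKO mice, the elongation factor Tefm (log2 -0.52, adjusted p = 0.0355 by edgeR). With unloading the smallest p in controls belonged to Top1mt, the mitochondrial topoisomerase (log2 -0.52 ± 0.20, adjusted p = 0.0850 by edgeR), Polg, the replicative polymerase, and Twnk, the helicase. Tfam, which packages and activates the genome, averaged 32.0 CPM in AMB Ctrl and 25.9 in HU Ctrl (adjusted p = 0.330). Of 29 genes for processing and stability of mitochondrial RNA, 5 fell with unloading in controls (5.74% of all genes were called lower) and 2 in mKO mice (4.75% of all genes), and none rose. Leaving out 32c and 40a gave 8 and 10, where 3169 and 1833 of all 17313 genes tested were called in either direction. Nsun4, an rRNA methyltransferase that also helps join the ribosomal subunits, fell by 0.51 ± 0.13 on the log2 scale in controls (adjusted p = 0.0123), Supv3l1, the RNA helicase of the mitochondrial degradosome, by 0.46 ± 0.12 (adjusted p = 0.0171), and Mrm1, which methylates mt-Rnr2, by 0.78 ± 0.23 (adjusted p = 0.0252) and in mKO mice by 1.29 ± 0.23 (adjusted p = 0.00118). Tbrg4, a FASTK-family RNA-binding protein, fell by 0.52 ± 0.16 in controls (adjusted p = 0.0314) and by 0.52 ± 0.16 in mKO mice (adjusted p = 0.0404). The fifth in controls was the rRNA methyltransferase Mrm3 (log2 -0.53 ± 0.17, adjusted p = 0.0436 by edgeR). None of the 8 genes tested from a preset list of nuclear copies was called. That list held Gm15772, which shared no 150-base window, and left out Gm13341, which shared windows with mt-Co2.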

How the data were processed

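The authors deposited raw read counts per Ensembl gene for 30 libraries, 1 column per mouse, with no normalisation. Per the submitters' processing notes the tools were STAR 2.7.9a with cutadapt 1.16, then featureCounts 1.6.3, with DESeq2 1.34.0 also named, on GRCm39; no source used here states the annotation, the strand setting or the handling of multiply matching reads. Protocol texts on people and myotubes do not match mouse soleus and were not used beyond the library kit. Groups come from the sample labels; 52073 of 56980 genes had a symbol. Each library has its own ID in its title and is taken as 1 mouse; p-values measure the spread between these libraries.

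Shares are percent of all raw counts. CPM are TMM-normalised CPM from edgeR 4.0.16 (R 4.3.3); genes passing filterByExpr (16932) were fitted with 1 term per group plus sex on all 30 libraries (quasi-likelihood, robust), and Benjamini-Hochberg adjustment ran over all genes tested. DESeq2 1.42.0 and limma 3.58.1 were alternatives. Members and lists were chosen with earlier results of these data known. The rule named all mRNAs and rRNAs by level, tRNAs of at least 1 CPM, tests for called members, otherwise for the 3 smallest p, mt-Nd6 and mt-Rnr2, and up to 3 genes per other list; mt-Atp8, mt-Nd2 and mt-Atp6 ratios, Lars2, Tfam, Tefm, Tbrg4 and Mrm3 were added after their values were seen. GC contrast is the median deviation of genes in the top 20% of GC less that in the bottom 20% (14361 genes). Alternatives leaving out AMB Ctrl replicate 7 (alone or with AMB mKO replicate 4) or AMB mKO replicate 7, or using GC contrast, were added after the data had been seen. The edgeR fit was first tested on simulated counts with known changes. Depth makes counting error small above a few CPM; the spread between mice sets the precision.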

Additional observations from a re-analysis of the deposited data

Results flagged for a closer look

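Of 72 checks for a library far from the rest of its group, 10 found one, where chance gives about 1 in 20. mt-Nd6 was 1080 CPM in AMB Ctrl replicate 7 (1b) against 294 to 494 in the other 7, and its count per 1000 heavy-strand-promoter mRNA counts was 53.9 there against 5.90 to 10.3. The same ratio was 129 in AMB mKO replicate 4 (40a) against 5.29 to 13.9 in its group. mt-Rnr1 was 2434 CPM in AMB mKO replicate 7 (3b) against 59.7 to 407, and 471 CPM in HU mKO replicate 8 (14b) against 144 to 260. mt-Co3 was 99.3 CPM in HU Ctrl replicate 4 (46a) against 18.002 to 36.7, and 77.5 CPM in HU mKO replicate 5 (49a) against 10.1 to 25.8. In AMB Ctrl replicate 1 (15c) mt-Co2 was 54.0 CPM against 19.7 to 35.0, and mt-Nd4l 15.0 CPM against 5.99 to 8.99. The mitochondrial share of counts in HU mKO replicate 3 (24c) was 3.39% against 4.71 to 5.87% in the other 7.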

How the results depend on the processing

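No paired analysis was possible because the replicate numbers only name samples in accession order and the labels give no pairing of mice across groups. The number of mitochondrial genes called with unloading in controls, 1 (mt-Nd6), was 0 with no low-count filter, without AMB Ctrl replicate 7, and without it and AMB mKO replicate 4; 2 with the title letter as covariate, with DESeq2 and without AMB mKO replicate 2 (mt-Nd6 and mt-Tq); 3 with limma-voom (with mt-Rnr2); and 4 without AMB mKO replicates 2 and 4 and with the compared groups only (with mt-Rnr2 and mt-Atp8). With GC contrast as covariate it was 1, but that gene was mt-Nd3 (log2 -1.58, adjusted p = 0.00957 by edgeR) and 12 of 13 mRNAs were negative. In mKO mice, 0 became 2 with the title letter and with DESeq2 (mt-Tl1 and mt-Tt), 1 without AMB mKO replicate 7 (mt-Tt, adjusted p = 0.0394 by edgeR) and 1 with limma-voom (mt-Nd6). Both genotype comparisons and the interaction stayed at 0 in every alternative run. No change of mt-Nd6, mt-Rnr2 or mt-Atp8 with unloading turned its sign in 16 alternatives each. The median log2 difference of the mRNAs between ambulatory genotypes ran from -0.62 to 0.03. All genes called with unloading in controls numbered 1882 in the main model, 4257 with limma-voom, 3169 without AMB mKO replicates 2 and 4, 3098 with the compared groups only, and 1225 with no low-count filter; in mKO mice they numbered 1702, 608 with the compared groups only, 2591 with the title letter, 1128 with GC contrast and 987 with no low-count filter; between ambulatory genotypes they numbered 3, 9 with DESeq2 and 1 with the compared groups only. DESeq2 called 2469 of all genes with unloading in controls and 2335 in mKO mice. mt-Nd3, with as few as 1 count in a library, and the untested tRNAs are limited by depth.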

Other observations

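Libraries 40a and 1b had high ratios of several mitochondrial transcripts to the heavy-strand-promoter mRNAs, and 32c, also low in mitochondrial counts, showed part of this. The 13 mRNAs held 0.741% of counts in 40a, 1.78% in 1b and 1.59% in 32c, against 2.51 to 7.54% in the other 27. A transcript less reduced than these mRNAs therefore has a high ratio there. The tRNA share of counts was 0.00661% in 40a and 0.00683% in 1b, ranks 11 and 14 from the lowest. Per 1000000 counts of the other heavy-strand-promoter mRNAs, mt-Nd5, whose end overlaps mt-Nd6 on the opposite strand, gave 632818 in 40a and 223012 in 1b, against 144514 in 32c and 115988 to 164630 in the other 27. For 8 of the 9 tested tRNAs this ratio was highest in 40a, and for 6 of the 9 it was second highest in 1b. mt-Tq gave 1093 in 40a and 555 in 1b against at most 153 in the other 27, and mt-Tw 6335 and 2412 against at most 1326. mt-Nd6 gave 128788 in 40a, 53922 in 1b and 13893 in 32c, all above the other 27, whose highest was 10274. mt-Nd2 lay below the other 27 in all 3 libraries, at 66207 in 40a, 69039 in 1b and 64464 in 32c against at least 75386. mt-Rnr1 gave 60544 in 40a, the highest of all, but 9137 in 1b, within the 2079 to 37776 of the other 27. mt-Atp8, at 176 and 167, lay within the range of the other ambulatory libraries. Both libraries also had the highest GC contrast, at 1.28 and 0.81, against -0.54 to 0.37 in the other 27 and 0.11 in 32c; its part in the pattern was not tested.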
